A study of Mus musculus with 2 samples.

Results

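Imprinted genes other than H19 and its neighbour Igf2 were followed in ovaries that lacked H19. The set was named by symbol and holds 38 of the 24421 rows of the count table, spread over 17 loci: Dlk1-Dio3, Kcnq1, Peg3, Snrpn-Ube3a, Peg10-Sgce, Gnas, Mest-Copg2, Nnat-Blcap and 9 single genes. Of the 38 rows, 30 had a mean of at least 1 CPM (counts per 1000000 scaled counts of a library) over the libraries and are called measured below; the other 8 are given by their counts. The design has 2 libraries of whole-ovary total RNA from 8-week-old C57BL/6J mice. The knockout library is labelled H19KO, with H19(Δ3) as its allele, and the other is labelled wild type (WT). Both genotypes share strain, age and housing without treatment, and the labels do not say how many animals or ovaries went into a library or what the Δ3 deletion removes. Libraries were stranded and depleted of ribosomal RNA rather than selected for poly(A) tails. A genotype with a single library has no spread between replicates, so the values below describe these libraries and carry no p-values.

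Imprinted genes are expressed mainly from the allele of 1 parent, which is set by DNA methylation laid down in the egg or sperm at a control region that often serves a whole cluster. Clusters usually combine protein-coding genes that act on fetal and placental growth with long noncoding RNAs from the opposite allele. H19 is such a noncoding RNA, and in H19Δ3 mouse embryos it has been described as a brake on a network of imprinted genes that includes Mest and Slc38a4. The counts here do not separate parental alleles, so a level is the sum over both.

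H19 checked the label: it had 0 counts in the H19KO library and 672 in the WT library, at least 223-fold lower by an allowance of 3 counts for a count of 0. Igf2, which is left out of the set, had 632 counts in the H19KO library and 275 in the WT library. The libraries held 23041225 counts (H19KO) and 23335131 counts (WT). Markers of ovarian cell types, each summed over its list, were unequal between the libraries. All 9 granulosa markers were measured and summed to 3853 CPM in H19KO and 4890 in WT, with 8 of the 9 intervals below equality. The 6 luteal markers summed to 4820 CPM in H19KO and 5491 in WT, and the 9 oocyte markers to 331 CPM in H19KO and 419 in WT. The 4 endothelial markers summed to 428 CPM in H19KO and 513 in WT. The 7 markers of stroma and smooth muscle summed to 4835 CPM in H19KO and 3502 in WT, all with intervals above equality, and the 4 macrophage markers to 337 CPM in H19KO and 269 in WT, with 3 intervals above equality and that of Csf1r below. Theca and interstitial markers summed to 12009 CPM in H19KO and 12176 in WT, mostly Hsd3b1, and went both ways: of 5 measured, 2 intervals were above equality and 3 below. Among them the androgen enzyme gene Cyp17a1 had 2834 counts in H19KO and 11243 in WT, wholly beyond 2-fold lower, as was the granulosa gene Cyp19a1 with 345 in H19KO and 1052 in WT. Of tissue outside the ovary, oviduct markers summed to 5.92 CPM in H19KO and 1.89 in WT, with Ovgp1 at 134 counts in H19KO and 33 in WT but Foxj1 at 3 in H19KO and 11 in WT. Neuronal markers summed to 43.6 CPM in H19KO and 44.3 in WT, with Syt1 at 253 counts in H19KO and 103 in WT but Tubb3 at 752 in H19KO and 918 in WT. Adipocyte markers summed to 11.1 CPM in H19KO and 14.9 in WT. Apart from the adipocyte hormone gene Lep, at 0 in H19KO, and the neuronal gene Gad1, at 0 in WT, no listed marker was at 0. In whole ovary, fewer cells of a type and less RNA per cell cannot be told apart, and the part of these cell-type differences in the values below was not tested.

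Most imprinted genes had similar levels in both libraries, and 7 of them stood 1.33- to 1.84-fold apart. Mest, Mirg and Nnat were the measured members farthest lower in the H19KO library by their ratio, Mirg on few counts, with Kcnq1 and Nap1l5 also lower. Dlk1 and Peg10 were the farthest higher. None of the 30 measured members had an exact 95% binomial (Clopper-Pearson) interval of the H19KO to WT ratio wholly beyond 2-fold in either direction; over all 13928 genes of at least 1 CPM, 0.610% were wholly beyond 2-fold higher and 0.388% lower. With a limit of 1.5-fold, Mest and Nnat were lower (1.21% of all genes) and no member was higher (1.80%). These intervals cover counting error only. They lay above equality for 9 members, where 22.2% of all genes did, and below it for 6, where 24.0% did; the members' shares were 30.0% and 20.0%. The median log2 ratio (H19KO over WT) of the measured members was 0.04 and that of all genes -0.01. For 19 of the 30 members the log2 ratio was within 0.2 of equality. The share of all genes was not counted for that band or for the 7 members set apart above. Both counts therefore describe the members only. Of all genes, the central 95% spanned log2 ratios of -0.67 to 0.79, and 4 members lay outside that span, Dlk1 above it and Mest, Nnat and Mirg below.

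**Figure D1:**
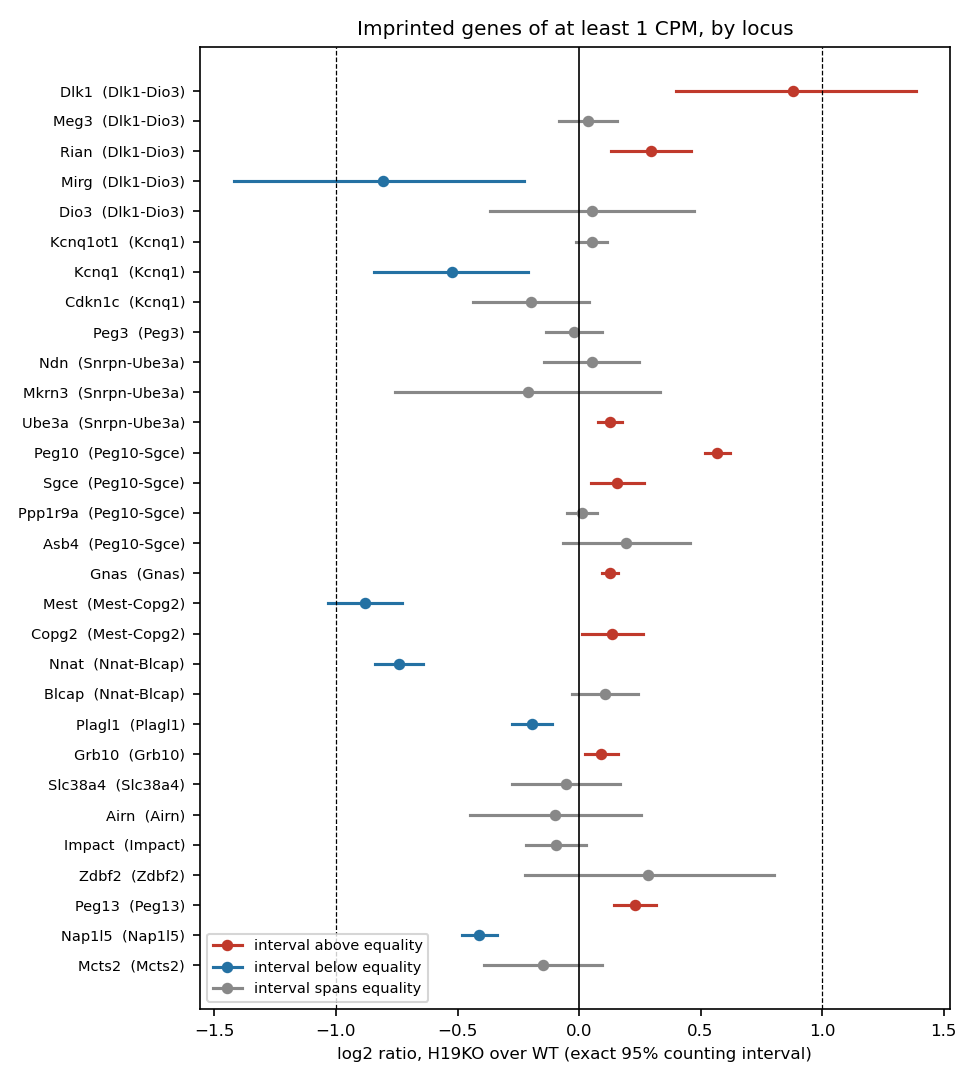
Log2 ratio of H19KO over WT (x axis) for the 30 imprinted genes of at least 1 CPM (y axis, by locus), with exact 95% counting intervals as bars; dashed lines mark 2-fold. Mest (-0.88), Mirg (-0.81) and Nnat (-0.74) lie farthest to the left, with a wide interval for Mirg, Dlk1 (0.88) lies farthest to the right with a wide interval, and most members cluster around 0.

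Of the measured members with a point ratio beyond 1.5-fold, 3 were farthest from equality by the nearer bound of their interval: Mest, Nnat and Dlk1. Peg10, at 1.48-fold higher in H19KO, was under that limit. The promoter windows of Mest, Nnat and Dlk1 are shown because imprinted starts are known for CG-rich sequence. Each runs from 250 bases before to 50 after an annotated start (RefSeq, GRCm38.p6, plus strand), 300 bases in all; for Mest, the start with the most CG dinucleotides of 3 was taken. Capitals mark TGCCGC or its reverse complement GCGGCA, the hexamer that the imprint-protecting zinc finger protein ZFP57 binds when it is methylated.
Mest, chr6:30737800-30738099: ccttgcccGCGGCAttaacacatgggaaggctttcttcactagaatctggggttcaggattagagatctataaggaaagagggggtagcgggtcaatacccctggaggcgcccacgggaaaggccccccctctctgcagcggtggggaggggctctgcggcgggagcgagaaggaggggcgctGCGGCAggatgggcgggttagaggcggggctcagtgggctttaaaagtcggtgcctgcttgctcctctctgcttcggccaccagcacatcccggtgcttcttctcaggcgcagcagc
Nnat, chr2:157559828-157560127: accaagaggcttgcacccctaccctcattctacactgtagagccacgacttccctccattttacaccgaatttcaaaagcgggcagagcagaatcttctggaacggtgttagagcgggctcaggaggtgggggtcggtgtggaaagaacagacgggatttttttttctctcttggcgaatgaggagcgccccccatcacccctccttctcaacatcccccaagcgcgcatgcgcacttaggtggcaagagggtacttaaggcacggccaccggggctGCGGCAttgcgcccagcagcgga
Dlk1, chr12:109452573-109452872: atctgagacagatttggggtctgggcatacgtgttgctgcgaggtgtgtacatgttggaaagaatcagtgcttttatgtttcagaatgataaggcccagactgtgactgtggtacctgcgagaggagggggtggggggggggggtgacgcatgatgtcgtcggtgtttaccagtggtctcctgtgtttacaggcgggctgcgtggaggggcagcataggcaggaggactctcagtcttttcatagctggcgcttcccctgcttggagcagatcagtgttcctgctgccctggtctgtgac

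The Mest window held 17 CG dinucleotides and 2 hexamers, the Nnat window 17 and 1, and the Dlk1 window 9 and 0. Of the 38 members, 31 had a promoter entry, and 10 of these 31 (32.3%) held the hexamer on either strand in the window with the most CG; over all 27025 genes with an entry, 12.2% did. The median number of CG dinucleotides was 17 in the members' windows and 8 over all genes. The hexamer itself contains a CG, and the shares were not matched for CG number. Whether the members' share exceeds that of equally CG-rich windows was therefore not tested. Of all promoter windows, 68.6% held fewer CG than the Mest and Nnat windows, and 54.2% fewer than the Dlk1 window. A match is a description of the letters, not a bound site.

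Levels differed far more between members than between libraries. Gnas, which encodes the G protein alpha subunit that couples the gonadotropin receptors to cyclic AMP, was the most abundant by CPM, at 673 CPM in H19KO and 616 in WT. Per kb of annotated exon, Nap1l5, a nucleosome assembly protein-like gene without introns, led with 62.1 CPM per kb in H19KO and 82.5 in WT. Gnas followed with 60.1 (H19KO) and 55.0 (WT) CPM per kb, but with its longest transcript as the length it had 170 in H19KO and 156 in WT, above Nap1l5. Peg10 had 47.9 CPM per kb in H19KO and 32.3 in WT, whereas Nnat had 30.6 in H19KO and 51.2 in WT, so these genes exchanged places between the libraries. At the low end of the measured members, Zdbf2 had 0.253 CPM per kb in H19KO and 0.207 in WT. The members together summed to 2627 CPM in H19KO and 2505 in WT.

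**Figure D2:**
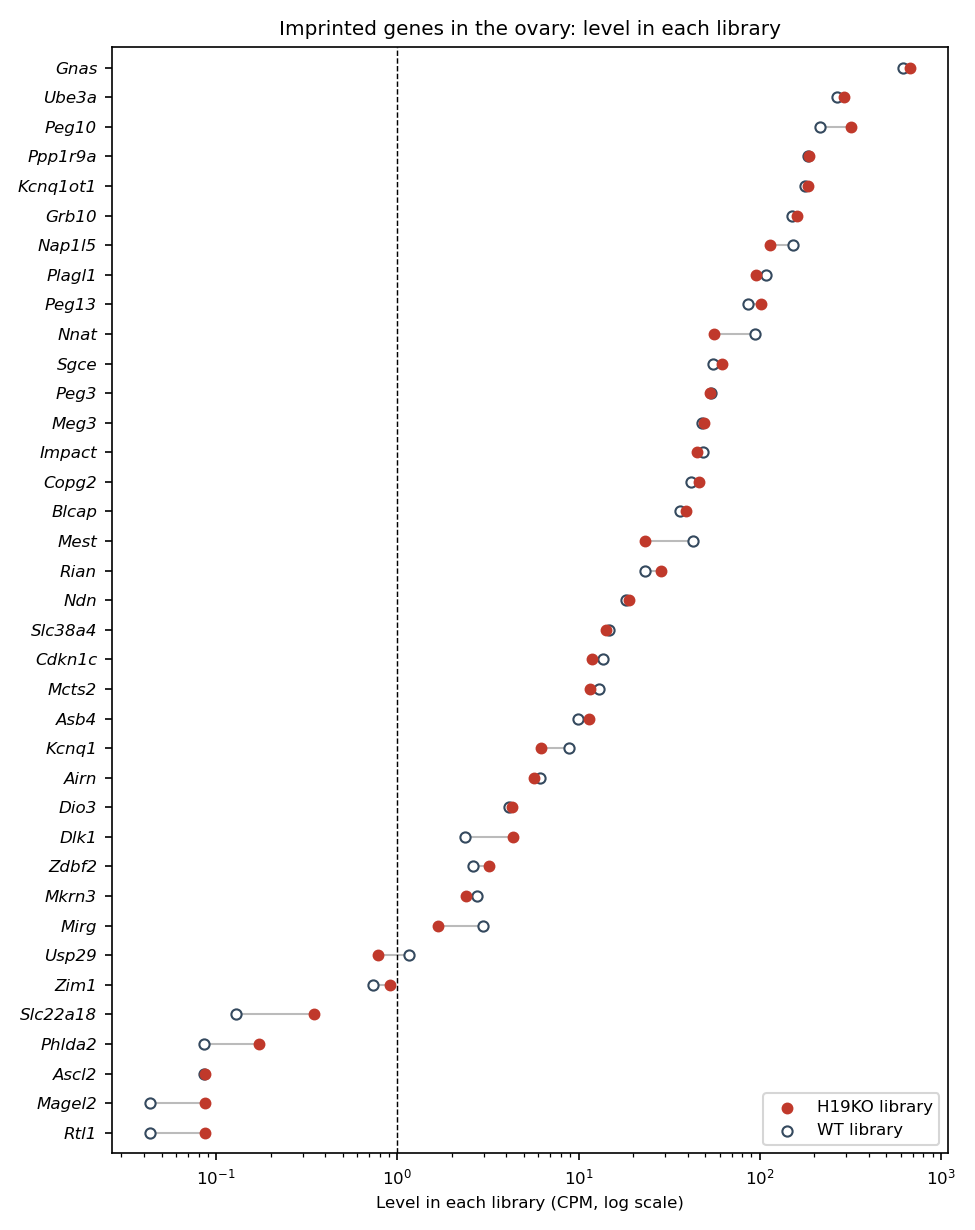
Level of each imprinted gene (y axis, ordered by mean) in CPM on a log scale (x axis), with filled points for the H19KO library and open points for the WT library; the dashed line marks 1 CPM, and Snrpn, at 0 in both, is not drawn. Gnas is highest at 673 (H19KO) and 616 (WT) CPM, and the widest gaps above 1 CPM are those of Mest, Dlk1, Mirg and Nnat.

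Mest, a paternally expressed gene for a hydrolase-fold protein linked to fetal growth and fat cell size (mm10 chromosome 6, 30723547 to 30748465, plus strand), was lower in the H19KO library. It had 538 counts (23.3 CPM) in H19KO and 996 counts (42.8 CPM) in WT. The log2 ratio was -0.88 (-1.03 to -0.73), 1.84-fold lower in H19KO. Copg2, which encodes a coatomer subunit of vesicle transport and runs towards Mest on the opposite strand, was slightly higher instead. Copg2 had 1062 counts in H19KO and 971 in WT, a log2 ratio of 0.14 (0.01 to 0.26). The exons of the neighbours overlap at their ends, over 23.1% of annotated Mest exon bases, and the strand setting of the counting is not given, so reads from that overlap cannot be assigned. Mest also carries the microRNA gene Mir335 in an intron. The row for Mir335 had 0 counts in both libraries, but short mature microRNAs are largely lost from libraries of this kind. Its mature forms (RefSeq, GRCm38.p6, chromosome 6, plus strand) are shown with the seed, bases 2 to 8, in capitals, because they come from the transcript that was lower.
mmu-miR-335-5p: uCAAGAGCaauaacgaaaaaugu
mmu-miR-335-3p: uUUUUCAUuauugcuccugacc

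Nnat, which encodes neuronatin, a small membrane protein of the endoplasmic reticulum that affects calcium handling (chromosome 2, 157560078 to 157562522, plus strand), was also lower. It had 1296 counts (56.0 CPM) in H19KO and 2178 counts (93.7 CPM) in WT. The log2 ratio was -0.74 (-0.84 to -0.64), 1.67-fold lower in H19KO. Nnat lies within an intron of Blcap, on the opposite strand, and no exon bases are shared. Blcap had 908 counts in H19KO and 848 in WT, a log2 ratio of 0.11 (-0.03 to 0.24), so its interval spanned equality.

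Nap1l5 likewise lies within an intron of a gene on the opposite strand, Herc3, which encodes a ubiquitin ligase of the HECT family. Nap1l5 had 2646 counts in H19KO and 3536 in WT, a log2 ratio of -0.41 (-0.48 to -0.34). Herc3 had 544 counts in H19KO and 465 in WT, a log2 ratio of 0.23 (0.05 to 0.42). Mcts2, a retrocopy within the peptidase gene H13, had 269 counts in H19KO and 300 in WT, and its interval spanned equality; H13 had 5424 in H19KO and 5075 in WT. Peg13, a noncoding RNA within the vesicle-transport gene Trappc9, had 2335 counts in H19KO and 2000 in WT, a log2 ratio of 0.23 (0.14 to 0.32). Trappc9 went the other way, with 1175 counts in H19KO and 1316 in WT, -0.16 (-0.27 to -0.04). Mcts2 and Peg13 lie on the same strand as H13 and Trappc9. In libraries not selected for poly(A) tails, unspliced H13 or Trappc9 reads across those rows cannot be told from Mcts2 or Peg13 reads. The same limit holds for the ratios of these pairs below. Airn, the noncoding RNA that silences Igf2r in cis, had 132 counts in H19KO and 142 in WT, and Igf2r, which clears IGF2, had 5336 in H19KO and 5178 in WT. Both of these intervals spanned equality, at log2 ratios of -0.10 (-0.45 to 0.25) and 0.05 (-0.00 to 0.11). Without the strand setting, unspliced reads of Blcap, Herc3 or Igf2r may likewise fall in the rows of Nnat, Nap1l5 or Airn where these genes overlap. That limit also holds for their ratios below.

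A ratio of counts between neighbours within a library does not depend on how the libraries are scaled. For 10 such pairs the ratio of member to partner was compared between the libraries by the conditional odds ratio with its exact 95% interval. Mest per Copg2 was 0.507 in H19KO and 1.03 in WT, a log2 difference of -1.02 (-1.22 to -0.82). Nnat per Blcap was 1.43 in H19KO and 2.57 in WT, -0.85 (-1.02 to -0.68). Nap1l5 per Herc3 was 4.86 in H19KO and 7.60 in WT, -0.64 (-0.84 to -0.45). In these 3 pairs the paternally expressed member was lower relative to its partner in the H19KO library. Mcts2 per H13 had a log2 difference of -0.25 with an interval that ended just below equality (-0.50 to -0.00). Peg13 per Trappc9, Peg10 per Sgce and Kcnq1ot1 per Kcnq1 were higher in H19KO, by 0.39 (0.24 to 0.53), 0.41 (0.29 to 0.53) and 0.58 (0.26 to 0.90). Peg13, Peg10 and Kcnq1ot1 are usually paternally expressed as well, so paternal members of the pairs went both ways. Intervals spanned equality for Airn per Igf2r, for Ube3a per its antisense RNA Snhg14 and for Gnas per its antisense RNA Nespas.

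**Figure D3:**
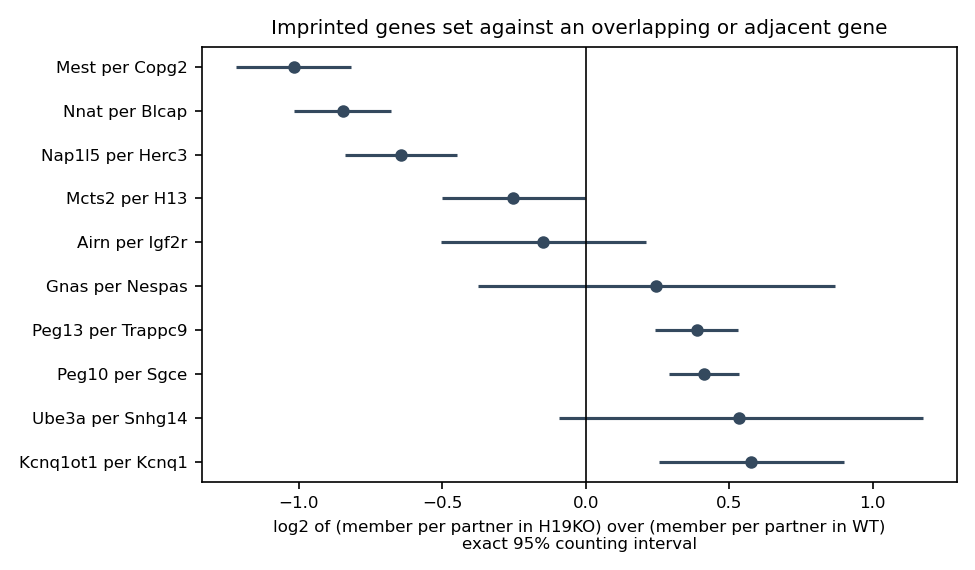
Difference between the H19KO and WT libraries, on a log2 scale (x axis), in the count of an imprinted gene per count of an overlapping or adjacent gene (y axis), with exact 95% counting intervals. Mest per Copg2 (-1.02), Nnat per Blcap (-0.85) and Nap1l5 per Herc3 (-0.64) lie left of equality, and Peg13, Peg10 and Kcnq1ot1 per partner lie right of it.

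In the Peg10-Sgce cluster on chromosome 6, Peg10 stood out. This gag-pol gene derived from a retrotransposon is needed to form the placenta. Peg10 (4747306 to 4760517, plus strand) had 7379 counts (319 CPM) in H19KO and 5002 counts (215 CPM) in WT. The log2 ratio was 0.57 (0.52 to 0.62), or 1.48-fold higher in H19KO. Sgce, the epsilon-sarcoglycan gene that starts next to Peg10 in the opposite direction and shares its control region, had 1425 counts in H19KO and 1285 in WT, a log2 ratio of 0.16 (0.05 to 0.27). The maternally expressed genes farther along, Ppp1r9a (neurabin, an actin- and phosphatase-binding protein) and Asb4 (a SOCS box ubiquitin ligase adaptor), had intervals spanning equality. Ppp1r9a had 4330 counts in H19KO and 4319 in WT, and Asb4 264 in H19KO and 232 in WT.

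Members of the Dlk1-Dio3 cluster on chromosome 12 did not move as a block. Dlk1, a membrane and secreted protein of the Notch ligand family that restrains differentiation of fat and other cells, had 101 counts (4.37 CPM) in H19KO and 55 counts (2.37 CPM) in WT. Its log2 ratio of 0.88 (0.40 to 1.39) matched the size of the Mest difference in the other direction, but the low counts left an interval of nearly a whole log2 unit. The noncoding RNAs of the other allele differed among themselves. Meg3, the first and most abundant of them, had 1135 counts in H19KO and 1113 in WT, 0.04 (-0.08 to 0.16). Rian, a host of C/D box snoRNAs, had 663 counts in H19KO and 543 in WT, 0.30 (0.13 to 0.46). Mirg, a host of a microRNA cluster, had 39 counts in H19KO and 69 in WT, -0.81 (-1.42 to -0.23). The 14 microRNA rows that lie within Mirg had at most 2 counts each in either library, so their products were not measured. Dio3, the deiodinase that inactivates thyroid hormone, had 99 counts in H19KO and 96 in WT. Rtl1, a retrotransposon-derived gene of placental vessels, had 2 counts in H19KO and 1 in WT.

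**Figure D4:**
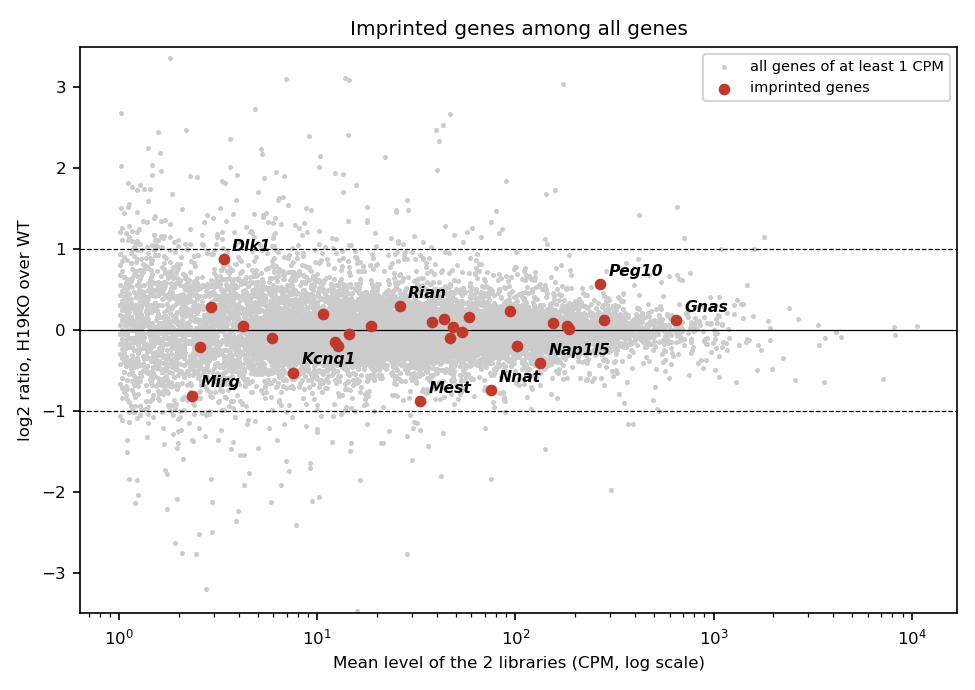
Log2 ratio of H19KO over WT (y axis) against the mean level of the libraries in CPM on a log scale (x axis) for the 30 measured imprinted genes (red) and all genes of at least 1 CPM (grey); 7 genes beyond 3.5 log2 units are off the axis and dashed lines mark 2-fold. All 30 imprinted genes lie within the dashed lines, with Dlk1 and Mest nearest to them.

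The Kcnq1 cluster lies on distal chromosome 7, as H19 does, with its members 389 to 923 kb beyond H19. Kcnq1ot1, the paternally expressed noncoding RNA that silences the cluster in cis, had 4265 counts in H19KO and 4139 in WT, 0.05 (-0.01 to 0.11). Kcnq1, the potassium channel gene that Kcnq1ot1 crosses on the opposite strand, had 143 counts in H19KO and 207 in WT, -0.52 (-0.84 to -0.21). Cdkn1c, which encodes the cell cycle inhibitor p57, had 275 counts in H19KO and 317 in WT, and its interval of -0.44 to 0.04 spanned equality. Of annotated exon bases, 2.96% of Kcnq1, 8.74% of Ube3a, 8.83% of Gnas and 14.3% of Usp29 are also exon of a gene on the other strand, where reads cannot be assigned without the strand setting. The other members of the cluster were near the floor. Ascl2, a trophoblast transcription factor, had 2 counts in each library, Phlda2, a restraint on placental growth, 4 in H19KO and 2 in WT, and the transporter gene Slc22a18 had 8 in H19KO and 3 in WT.

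In the Snrpn-Ube3a cluster, the ubiquitin ligase gene Ube3a, which is imprinted in neurons and expressed from both alleles in most other cells, had 6747 counts in H19KO and 6211 in WT, 0.13 (0.08 to 0.18). Ndn, a growth-suppressing MAGE family gene, had 440 counts in H19KO and 427 in WT. Mkrn3, a ring-finger gene known for holding back puberty, had 55 counts in H19KO and 64 in WT. Magel2, another MAGE family gene, had 2 in H19KO and 1 in WT. Intervals of Ndn and Mkrn3 spanned equality. Snrpn, a splicing protein gene expressed in many tissues, had 0 counts in both libraries, which allows up to 0.130 CPM in H19KO and 0.129 in WT. Snurf, whose row overlaps Snrpn on the same strand, was also at 0 in both, and whether reads that fit both rows were left out of the counting was not tested. In the Peg3 cluster, the zinc finger gene Peg3 was nearly equal at 1231 counts in H19KO and 1256 in WT, -0.02 (-0.14 to 0.09). The deubiquitinase gene Usp29, which starts from the same region in the opposite direction, had 18 counts in H19KO and 27 in WT, and the zinc finger gene Zim1 21 in H19KO and 17 in WT.

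The remaining members are single genes with small differences. Gnas had 15555 counts in H19KO and 14318 in WT, 0.13 (0.09 to 0.16); its several promoters and imprinted isoforms share 1 row and could not be separated. Grb10, an adaptor that restrains insulin and IGF receptor signalling, had 3713 counts in H19KO and 3505 in WT, 0.09 (0.02 to 0.16). Plagl1, a zinc finger transcription factor that acts on other imprinted genes, had 2200 counts in H19KO and 2528 in WT, -0.19 (-0.28 to -0.11). The last members had intervals spanning equality. The amino acid transporter gene Slc38a4 had 329 counts in H19KO and 343 in WT. Impact, which dampens the amino acid starvation kinase GCN2, had 1047 counts in H19KO and 1124 in WT, and Zdbf2 74 in H19KO and 61 in WT.

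By the allele usually expressed, the 18 measured paternal members had a median log2 ratio of -0.04, with 4 intervals above equality and 4 below. The 12 maternal members had a median of 0.10, with 5 above and 2 below, where 22.2% of all genes were above and 24.0% below. The range was wider among the paternal members, from -0.88 (Mest) to 0.88 (Dlk1), than among the maternal ones, from -0.81 (Mirg) to 0.30 (Rian). Usual allele is background knowledge, mostly from embryo, placenta and brain, and was not measured here. Gnas, Grb10 and Ube3a, whose allele differs by tissue or isoform, were grouped with the maternal ones. Of the network genes named above, Mest had an interval below equality and Slc38a4 an interval spanning it. Other genes of that network were not looked at as a group, so these values do not describe the network as a whole.

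Other genes reported as imprinted in mouse, 49 of 53 listed symbols with a row and 35 measured, had a median log2 ratio of -0.06. Of these, 12 had an interval above equality (22.2% of all genes), 9 below (24.0% of all genes) and none wholly beyond 2-fold. The most abundant were Cd81, a tetraspanin, at 0.08 (0.04 to 0.12), Igf2r, H13, and Jade1, a chromatin reader, at 0.18 (0.10 to 0.25). Picked after its value was seen, Adam23, a metalloprotease-like adhesion gene, had 1097 counts in H19KO and 593 in WT, 0.89 (0.75 to 1.04), the counterpart in size to Mest. A list of genes that act on imprints, called imprint-keeping below, had 29 measured of 31 listed. It also includes Tet1, Tet2 and Tet3, which take part in removing methylation. The 29 had a median of -0.09, with 2 intervals above equality (22.2% of all genes), 13 below (24.0%) and none beyond 2-fold. Trim28, the corepressor recruited by ZFP57, had 5780 counts in H19KO and 6933 in WT, -0.25 (-0.31 to -0.20). The maintenance methyltransferase gene Dnmt1 had a log2 ratio of -0.12 (-0.17 to -0.06), Dnmt3a, which methylates new sites, -0.15 (-0.22 to -0.09), and the chromosomal regulator Smchd1 -0.04 (-0.11 to 0.03). Padi6 and Nlrp5, with intervals below equality, are also on the list of oocyte markers. Of the 9 oocyte markers, 7 had intervals below equality, Padi6 and Nlrp5 among them.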

How the data were processed

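Whole ovary RNA was measured in 2 libraries, H19KO and WT, and the authors deposited a count for each gene symbol in each. STAR 2.5.0a, Cufflinks 2.2.1, DESeq2 1.0.0 and build mm10 are named, without a role, in the submitters' processing notes. How reads were counted, against which annotation and with which strand setting is not given in the sources used here. The median H19KO to WT ratio of nonzero counts, and so both size factors, was exactly 1, as prior median-of-ratios scaling or tied low counts could give; above 200 counts it was 0.986. The lowest whole number absent was 937 in H19KO and 527 in WT. If the values were rescaled before deposit, the totals are not read depths and the counting intervals are slightly off.

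Libraries were scaled by TMM (edgeR 4.0.16) to CPM. Log2 ratios are of scaled counts plus 0.5, and the exact 95% binomial intervals are conditional on the total of both libraries. No significance test was possible. Positions and exon lengths came from GENCODE M21 (mm10), which held the symbols of 23350 rows. Another 27 rows carried dates as names and were not used beyond the totals.

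Named outside the members were H19, Igf2, overlapping genes, and the 4 most abundant genes of the lists of imprinted and imprint-keeping genes plus any gene of a list beyond 2-fold. Adam23 and the other single cell markers were picked after their values were seen; marker lists are otherwise given as sums. The members, lists, neighbour pairs and allele groups were chosen with earlier results of these data known. Intervals were tested on simulated counts that carried counting error alone. That check cannot cover differences between animals or rescaling before deposit. Other settings tried were scaling by total counts, by DESeq2 1.42.0 size factors or by totals that omit the 10 most abundant genes. Further ones were 5 added counts, no filter or one at 5 CPM, point ratios, a 1.5-fold limit and length by the longest transcript. Computation used Python 3.11.15, scipy 1.17.1 and R 4.3.3.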

Additional observations from a re-analysis of the deposited data

How the results depend on the processing

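Under the 3 other scalings no measured member's interval moved to another side of equality, and all 120 member log2 ratios under those scalings or with 5 added to each count kept their sign, where called, and lay inside their main interval. The median log2 ratio of all genes was -0.0117 by TMM and -0.0197 to -0.00139 under the other scalings. These scalings are thus nearly the same and could move a ratio only slightly. The median of the members was 0.0357 to 0.0540 over the alternatives, that of the other imprinted genes -0.0631 to -0.0350 and that of the imprint-keeping genes -0.102 to -0.0842. No member's interval was beyond 2-fold under any scaling or filter, and no measured member was by the point ratio; among members under 1 CPM, Slc22a18, with 8 counts in H19KO and 3 in WT, was so by its point ratio alone. The limit of 1.5-fold gave 2 lower members, Mest and Nnat, as a looser limit can. With a minimum of 5 CPM, 8 members had an interval above equality and 5 below, because Dlk1 and Mirg were then not counted. With the longest transcript as length, which cannot exceed the union of exons, levels per kb could only rise or stay equal. By that length 9 of 30 rose by over 1.5 times, Gnas the most to 163 CPM per kb on average. No paired analysis was possible because H19KO and WT are represented by 1 library each, and there is no replicate to omit. Depth limits members near 1 CPM: the interval of Mirg spans -1.42 to -0.23, while that of Gnas spans 0.09 to 0.16.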
